A study of Homo sapiens with 3 samples.

Results

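Matrix metalloproteinases, plasminogen activators and their partners were examined as 10 named genes, *MMP1*, *MMP7*, *MMP13*, *MMP14*, *MMP15*, *PLAU*, *PLAUR*, *PLAT*, *TIMP1* and *TIMP2*. They were taken by exact gene symbol from a table of 23131 genes, and each symbol had 1 row. RNA came from HCT-116, a human colon carcinoma cell line that carries wild-type APC and, in every condition, the CTNNB1ΔSer45 allele, whose β-catenin resists degradation. One library was made from cells transfected on consecutive days with pooled anti-*APC* siRNA and harvested 48 hours after the second transfection. The control library analysed here came from cells given no siRNA. Its title calls the cells untransfected and its treatment label says that they received the transfection reagent alone. A library of cells given scrambled siRNA was also made and was not analysed here, so each difference below includes any effect of siRNA delivery. Knockdown was transient, in 1 cell line and with 1 library per condition, so no difference has a replicate check.

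Matrix metalloproteinases (MMPs) are zinc-dependent proteases that are made as inactive precursors and that cut collagens, laminins and cell surface proteins. Plasminogen activators cut plasminogen to plasmin, a broad protease that dissolves fibrin, degrades matrix and activates several pro-MMPs. Tissue inhibitors of metalloproteinases (TIMPs) bind the active site of MMPs. In the intestine *MMP7* is made by epithelial cells and is abundant in adenomas, and *MMP7*, *MMP14* and *PLAUR* have been described as targets of canonical WNT signaling, the pathway that APC restrains.

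Levels are FPKM, fragments counted relative to transcript length and to the number of mapped reads, as the authors computed them with Cuffdiff, so levels of different genes are compared per length. Low values in the table moved in steps of whole reads: 396 of 2622 low genes shared 1 ratio within 0.01 on the log2 scale, the ratio that equal read numbers in both libraries give. From the size of 1 step, about 27500000 reads were mapped in untransfected and 25100000 in knockdown cells. Read numbers given below are estimates from that depth and from transcript length, and 95% intervals cover counting error only, not the spread between cultures, and reads multiplied by PCR are not independent molecules. *APC* itself had 9.15 FPKM in untransfected and 3.43 FPKM in knockdown cells, as cells given anti-*APC* siRNA are called below. Of 7 colon epithelial markers 5 reached a mean of 1 FPKM, whereas *KRT20* (0.475 FPKM untransfected) and *VIL1* (listed at 0 untransfected) did not. None of 4 endothelial markers, 1 of 6 fibroblast markers (*COL1A1*) and 1 of 5 leukocyte markers (*CD68*, 8.91 FPKM in untransfected and 5.01 FPKM in knockdown cells) reached it. The summed level of the epithelial markers was 1266 FPKM in untransfected and 1005 FPKM in knockdown cells. Most of that sum was *KRT8* (588 and 478 FPKM) and *KRT18* (461 and 337 FPKM). *CDH1* was more than 1.5-fold lower in knockdown cells, with a ratio of 0.636. *EPCAM* had a ratio of 0.898, and that of *CDX2* (0.923) spans equal levels. The ratio of *KRT20*, 1.51 (0.833 to 2.79) at about 21 and 29 reads, also spans equal levels. *VIL1* was higher on about 5 reads in knockdown cells. The part of the epithelial markers in the differences below was not tested. In bulk RNA, fewer cells of a kind and less RNA per cell cannot be told apart.

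Urokinase was the gene of this group that differed most between the libraries. *PLAU* had 20.0 FPKM in untransfected cells and 7.35 FPKM with anti-*APC* siRNA, and it was the only 1 of the 8 genes with a mean of at least 1 FPKM that passed a 1.5-fold difference on the scale of log2(FPKM + 0.1). Across all 12197 genes with such a mean, 830 were at least 1.5-fold lower with anti-*APC* siRNA (6.80%) and 356 were at least 1.5-fold higher (2.92%), together 9.72%. With 8 genes, a count of 1 is near what these shares give. In 134 of the 1186 genes past 1.5-fold 1 library was listed at 0. The remaining 7 genes lay within 1.5-fold, 6 of them lower and *MMP7* higher with anti-*APC* siRNA. *MMP1* and *MMP13* were near 0 in both libraries and were not counted. The median log2 ratio of the 8 genes was -0.30, against -0.05 for all genes, of which 58.6% were below 0.

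**Figure D1:**
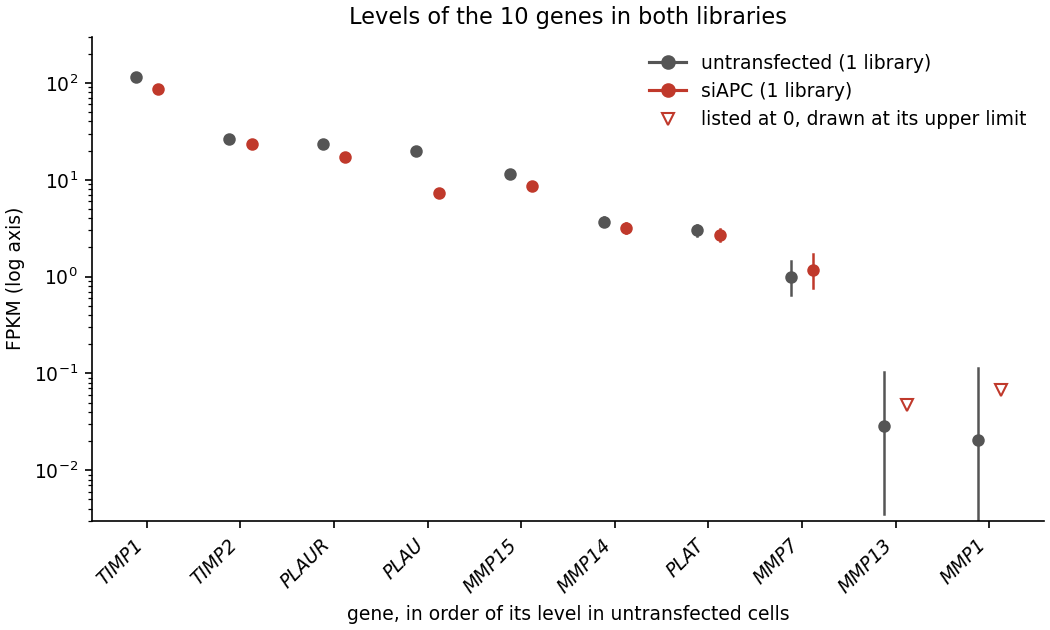
FPKM of the 10 genes (log axis) in the untransfected library (grey) and the anti-*APC* library (red, siAPC), with 95% counting intervals as bars, which are narrower than the points for most genes. *PLAU* shows the widest gap among the expressed genes, from 20.0 to 7.35 FPKM, and *MMP13* and *MMP1* are listed at 0 with anti-*APC* siRNA, drawn as open triangles at the limit that 3 reads would give.

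*PLAU* encodes urokinase-type plasminogen activator and lies on chromosome 10 of GRCh37 from 75668935 to 75677254 on the plus strand. Its values correspond to about 1177 reads without and 396 reads with anti-*APC* siRNA. The level with anti-*APC* siRNA was 0.368 of that in untransfected cells (95% counting interval 0.328 to 0.413), a log2 ratio of -1.44. On the scale of log2(FPKM + 0.1) the ratio was -1.43. Among 4732 genes whose mean lay within 2-fold of that of *PLAU*, 4.61% were at least 1.5-fold lower, and the range from the 5th to the 95th percentile of their log2 ratios was -0.56 to 0.35. *PLAU* lies outside that range. In the whole set of 12197 genes, 127 had a lower ratio, and 78 of those were listed at 0 with anti-*APC* siRNA. *PLAU* shares its locus with *C10orf55*, which overlaps it on the opposite strand and had 0.454 FPKM in untransfected and 0.142 FPKM in knockdown cells, about 29 and 8 reads. The library kit is not described as keeping strand, so reads of this pair cannot be told apart. In the authors' estimates *C10orf55* held few of them, with a ratio of 0.312 (0.119 to 0.677). That interval leaves out any error in how the reads of the pair were divided.

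The receptor of urokinase and the other activator differed less between the libraries than *PLAU*. *PLAUR*, the receptor that holds urokinase at the cell surface, lies on chromosome 19 from 44150247 to 44174699 on the minus strand. It had 23.6 FPKM in untransfected cells and 17.2 FPKM with anti-*APC* siRNA, a level of 0.732 (0.653 to 0.820). The counting interval excludes equal levels, while the difference stays under 1.5-fold and inside the 5th to 95th percentile range of genes at its level (-0.51 to 0.34 on the log2 scale, against -0.45 for *PLAUR*). *PLAU* was at 0.847 times the FPKM of *PLAUR* in untransfected and 0.426 times in knockdown cells. *PLAT*, which encodes tissue-type plasminogen activator and lies on chromosome 8 from 42032236 to 42065227 on the minus strand, had 3.02 FPKM in untransfected and 2.69 FPKM in knockdown cells. Its ratio of 0.893 (0.735 to 1.08) spans equal levels, so at about 238 and 194 reads no difference was detectable. The summed FPKM of both activators was 23.0 without and 10.0 with anti-*APC* siRNA, with most of the difference in *PLAU*.

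*SERPINE2*, a serpin that inhibits urokinase, had 49.3 FPKM in untransfected and 55.5 FPKM in knockdown cells. *SERPINB2*, another serpin that inhibits it, was listed at 0 in untransfected cells and had 0.108 FPKM in knockdown cells, about 5 reads. *SERPINA5*, a further serpin among the inhibitor genes described below, was lower. It had 0.532 FPKM in untransfected and 0.188 FPKM in knockdown cells, about 30 and 10 reads, a ratio of 0.353 (0.159 to 0.767).

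**Figure D2:**
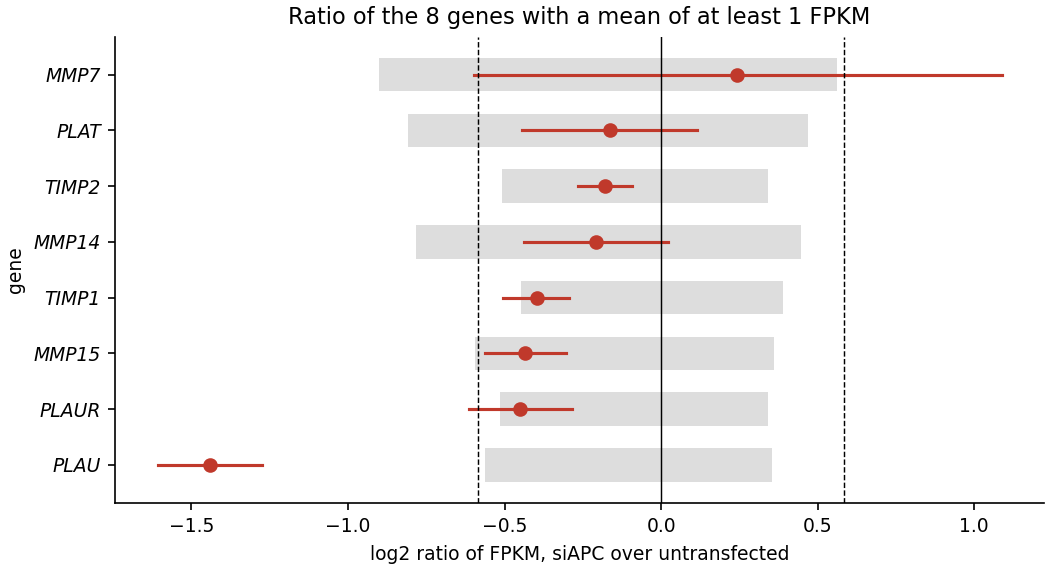
Log2 ratio of FPKM, anti-*APC* siRNA (siAPC) over untransfected, for the 8 genes with a mean of at least 1 FPKM (red points, no pseudocount) with 95% counting intervals as red lines. Grey bars span the 5th to 95th percentile of genes within 2-fold of the same mean level and dashed lines mark 1.5-fold, so that *PLAU* at -1.44 stands outside its bar whereas the other 7 points lie inside theirs.

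The MMP genes were expressed at low to moderate levels and none of them passed 1.5-fold. *MMP15* and *MMP14* encode membrane-type MMPs that act at the cell surface, MMP14 being the best known activator of pro-MMP2. *MMP15*, on chromosome 16 from 58059658 to 58080805 on the plus strand, was the most abundant member of the MMP family here, at 11.6 FPKM in untransfected cells and 8.59 FPKM with anti-*APC* siRNA. Its ratio was 0.741 (0.677 to 0.809), a difference larger than counting error and smaller than 1.5-fold. *MMP14*, on chromosome 14 from 23305769 to 23318250 on the plus strand, had 3.68 FPKM in untransfected and 3.19 FPKM in knockdown cells. Its ratio of 0.866 (0.738 to 1.02) did not differ from 1 beyond counting error. *MMP2*, the substrate of MMP14 in the activation step, was listed at 0 in both libraries.

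*MMP7* encodes matrilysin, a small MMP, and lies on chromosome 11 from 102391239 to 102401481 on the minus strand. It had 0.988 FPKM in untransfected cells and 1.17 FPKM with anti-*APC* siRNA. These values correspond to 25 and 27 reads. The ratio of 1.18 had a counting interval of 0.661 to 2.13, so no difference was detectable at this depth. *MMP7* was the lowest of the 8 expressed genes, and its mean reached 1 FPKM only through the knockdown library.

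*MMP1* and *MMP13* encode interstitial collagenases and lie in the same cluster on chromosome 11 as *MMP7*, from 102660132 to 102668891 and from 102813724 to 102826461, both on the minus strand. *MMP1* had 0.0204 FPKM in untransfected cells, the value of 1 read, and was listed at 0 with anti-*APC* siRNA. *MMP13* had 0.0288 FPKM in untransfected cells, the value of 2 reads, and was also listed at 0 with anti-*APC* siRNA. A count of 0 allows up to 3 reads, or 0.0674 FPKM for *MMP1* and 0.0475 FPKM for *MMP13*, so both genes were at or under the limit of detection in both libraries and no fold is given. *MMP1* shares its locus in the table with *MMP3*, listed at 0 in both libraries.

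The study examined binding motifs of TCF7L2, the factor through which β-catenin acts, and of AP-1, so the 250 bases before the start of 1 transcript of each gene, the one that GENCODE 44 marks as canonical, were searched for motifs of both factors on GRCh37. The gene spans given here cover all annotated transcripts, so a window can lie inside its gene. In *PLAUR* the window (chr19:44174322-44174571) lies wholly in an exon of another *PLAUR* transcript. In *PLAU* it (chr10:75670640-75670889) lies inside the gene span and is covered by an exon of *C10orf55*. Windows of *MMP7*, *MMP14*, *PLAU*, *PLAT* and *TIMP1* overlap exons of other transcripts of the same gene in part. The TCF motif was AACAAAG or ATCAAAG or TACAAAG or TTCAAAG, and the AP-1 motif was TGACTCA or TGAGTCA, on both strands. No 2 matches overlapped. The AP-1 motif was found in 4 of the 10 windows (*MMP1*, *MMP7*, *MMP13* and *PLAUR*) and in 3.04% of the windows of 16932 protein-coding genes of the table. The TCF motif was found in 1 of the 10 (*MMP7*) and in 8.98% of all windows. Both motifs occurred in *MMP7* and in 0.419% of all windows. *MMP1*, *MMP7* and *MMP13* are related genes of 1 cluster and are not independent cases, and the genes were not chosen at random. The window of *MMP7* is shown because it is the only one of the 10 with both motifs. It spans chr11:102401479-102401728 of GRCh37 on the minus strand and is written 5′ to 3′ with matches in capitals, 2 TCF matches that begin 194 and 109 bases before the start and 1 AP-1 match that begins 67 bases before it.
*MMP7*: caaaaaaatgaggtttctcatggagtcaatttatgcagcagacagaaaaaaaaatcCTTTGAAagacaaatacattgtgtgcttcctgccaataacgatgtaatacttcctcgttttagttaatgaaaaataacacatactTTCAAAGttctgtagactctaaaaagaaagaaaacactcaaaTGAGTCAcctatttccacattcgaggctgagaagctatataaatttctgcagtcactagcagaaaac
The AP-1 matches of the other 3 genes are shown with their flanks because they let the shared element be compared, with the match in capitals. They begin 71 bases before the start in *MMP1* (chr11:102668945-102668973, minus strand), 51 bases before it in *MMP13* (chr11:102826495-102826523, minus strand) and 186 bases before it in *PLAUR* (chr19:44174490-44174518, minus strand).
*MMP1*: gttataaagcaTGAGTCAgacagcctctg
*MMP13*: tccataagtgaTGACTCAccattgcaggc
*PLAUR*: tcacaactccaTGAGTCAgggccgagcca
The windows of *PLAU*, *PLAT*, *MMP14*, *MMP15*, *TIMP1* and *TIMP2* held neither motif, which says nothing of other starts of these genes. A match is a description of letters, and binding was not measured in the data used here.

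**Figure D3:**
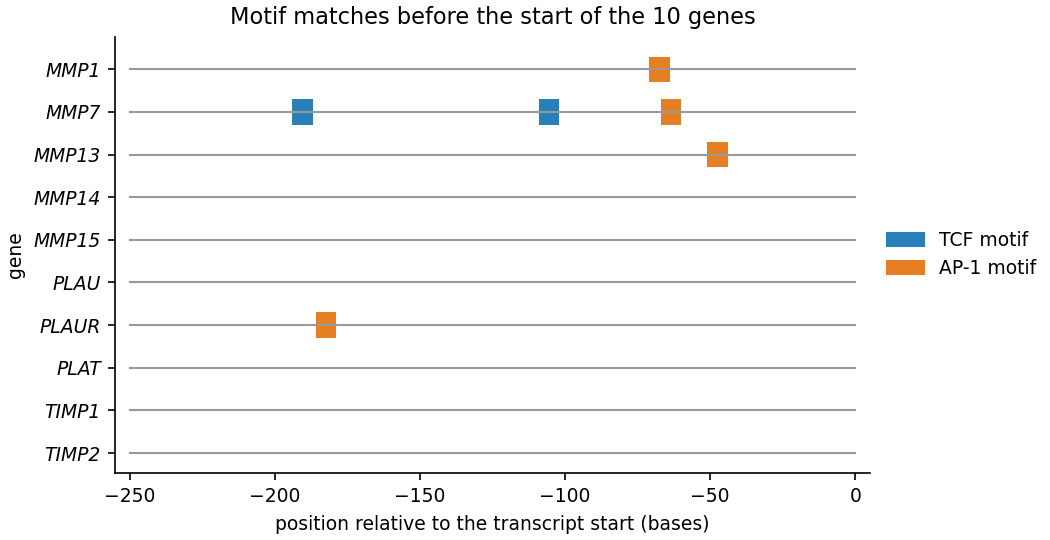
Positions of TCF (blue) and AP-1 (orange) motif matches in the 250 bases before the transcript start of each of the 10 genes, with distance from the start in bases on the horizontal axis. *MMP7* holds 2 TCF matches and 1 AP-1 match, *MMP1*, *MMP13* and *PLAUR* hold 1 AP-1 match each, and 6 genes hold none.

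The TIMP genes were the most abundant of the group. *TIMP1* encodes a secreted inhibitor of most MMPs and lies on chromosome X from 47441807 to 47446188 on the plus strand. It had 114 FPKM in untransfected cells and 86.7 FPKM with anti-*APC* siRNA, a ratio of 0.759 (0.705 to 0.816). Cuffdiff marked the *TIMP1* locus as low data. The locus also holds *ARAF* (18.1 and 15.4 FPKM), *SYN1* (0.158 and 0.0796 FPKM) and a microRNA, and how their reads were divided was not tested. *TIMP2* encodes the inhibitor that also links MMP14 to pro-MMP2 at the cell surface, and it lies on chromosome 17 from 76849059 to 76921469 on the minus strand. It had 26.2 FPKM in untransfected and 23.1 FPKM in knockdown cells, a ratio of 0.883 (0.832 to 0.937) that exceeds counting error at about 2490 and 2007 reads. Both TIMP ratios were under 1.5-fold and inside the range of genes at their level.

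The summed FPKM of *TIMP1* and *TIMP2* was 8.61 times that of the 5 MMP genes in untransfected cells and 8.49 times with anti-*APC* siRNA. *TIMP2* was at 7.12 times the FPKM of *MMP14* without and 7.26 times with anti-*APC* siRNA. The sums are carried by *TIMP1* and *MMP15*. *TIMP1* was at 115.5 times the FPKM of *MMP7* in untransfected and 74.1 times in knockdown cells, a proportion that rests on 25 and 27 reads of *MMP7*.

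Ordered by level in untransfected cells, the genes ran *TIMP1*, *TIMP2*, *PLAUR*, *PLAU*, *MMP15*, *MMP14*, *PLAT*, *MMP7*, *MMP13* and *MMP1*. Counting intervals of neighbours overlapped for *TIMP2* with *PLAUR*, for *MMP14* with *PLAT* and for *MMP13* with *MMP1*, so these neighbours were not separated. With anti-*APC* siRNA the order was the same except that *MMP15* (8.59 FPKM) came before *PLAU* (7.35 FPKM), with overlapping intervals, and that *MMP13* and *MMP1* were both listed at 0. *MMP14* and *PLAT* again overlapped, whereas *TIMP2* was above *PLAUR* beyond counting error.

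**Figure D4:**
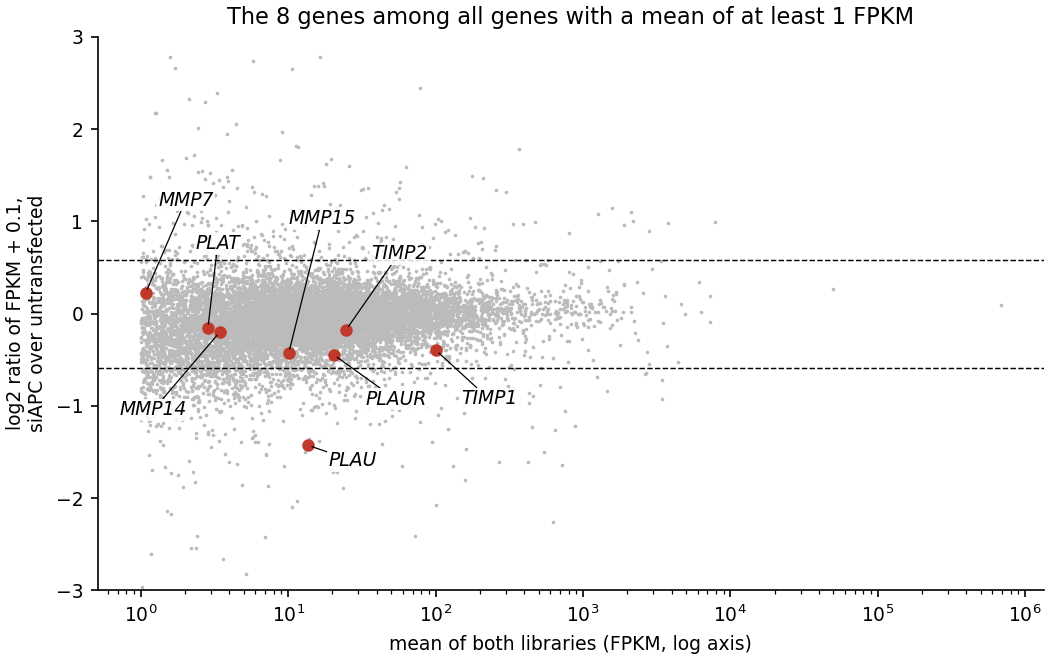
Log2 ratio of FPKM + 0.1, anti-*APC* siRNA (siAPC) over untransfected, against the mean FPKM of both libraries (log axis) for genes with a mean of at least 1 FPKM (grey), with 8 of the 10 genes in red and dashed lines at 1.5-fold. *PLAU* at -1.43 lies below the band of genes of similar level and the other 7 lie within it (140 genes beyond 3 on the vertical axis are not drawn).

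The rest of the pathway was described with 5 gene lists of 59 genes in all, of which 23 had a mean of at least 1 FPKM. Of these 23, 1 was at least 1.5-fold higher, 2 were at least 1.5-fold lower and 20 lay within 1.5-fold, with a median log2 ratio of -0.12. These counts are near the shares of all genes, 2.92% higher and 6.80% lower, and nothing is read from them about the lists. Of 18 other MMP genes, 7 were listed at 0 in both libraries, 1 of them (*MMP19*) with a failed estimate. *MMP11* (1.04 FPKM in untransfected and 0.963 FPKM in knockdown cells) and *MMP17* (1.48 and 1.19 FPKM) were the only ones to reach the mean of 1 FPKM. *MMP9*, a gelatinase, had 0.0339 and 0.0744 FPKM, about 2 and 4 reads. Under that mean, *MMP24* had 1.21 and 0.691 FPKM, a ratio of 0.571 (0.427 to 0.769). *MMP25* was also lower, at 0.562 (0.322 to 0.999). *MMP16*, at 3.56 (1.57 to 10.3), and *MMP20*, at 2.60 (1.09 to 6.87), were higher on few reads, about 7 and 24 and about 8 and 19.

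Of 9 inhibitor genes, 2 reached the mean of 1 FPKM, *SERPINE2* among them, and neither passed 1.5-fold. *TIMP3*, a matrix-bound inhibitor, was under that mean with 1.14 FPKM in untransfected and 0.278 FPKM in knockdown cells, about 138 and 31 reads. Its ratio was 0.244 (0.161 to 0.365), and it was named after its values were seen. The *TIMP3* locus holds 2 genes, and how their reads were divided was not tested.

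The 5 plasminogen and clearance receptors with a mean of at least 1 FPKM lay within 1.5-fold. *PLGRKT*, a membrane receptor of plasminogen, had 17.0 FPKM in untransfected and 13.0 FPKM in knockdown cells. *ANXA2* and *S100A10*, which form a surface complex that binds plasminogen and its activators, had 571 and 232 FPKM in untransfected cells and 627 and 261 FPKM with anti-*APC* siRNA. *ENO1*, a glycolytic enzyme that also binds plasminogen at the cell surface, had 1253 and 1144 FPKM. *PLG*, plasminogen itself, was at 0.0212 and 0.0342 FPKM, about 2 and 3 reads.

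Among 10 activating proteases and inducers, 9 reached the mean of 1 FPKM and the 2 that were at least 1.5-fold lower were both kallikrein-related peptidases. *KLK10* had 3.45 FPKM in untransfected and 1.30 FPKM in knockdown cells, a ratio of 0.376 (0.294 to 0.481). *KLK6* had 20.7 and 10.3 FPKM, a ratio of 0.498 (0.435 to 0.570). *FURIN*, which cuts the precursors of membrane-type MMPs, had 16.2 and 13.99 FPKM. *BSG*, a surface protein that induces MMPs (283 and 286 FPKM), and *F2RL1*, a receptor that proteases activate (92.3 and 95.7 FPKM), were the most abundant of this list.

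Of 15 *ADAM* and *ADAMTS* genes, 5 reached the mean of 1 FPKM. *ADAM19*, a membrane sheddase, was the 1 gene at least 1.5-fold higher, with 33.7 FPKM in untransfected cells and 53.8 FPKM with anti-*APC* siRNA, a ratio of 1.60 (1.54 to 1.65). *ADAM9* (96.4 and 87.7 FPKM) and *ADAM10* (38.6 and 43.7 FPKM) lay within 1.5-fold.

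**Figure D5:**
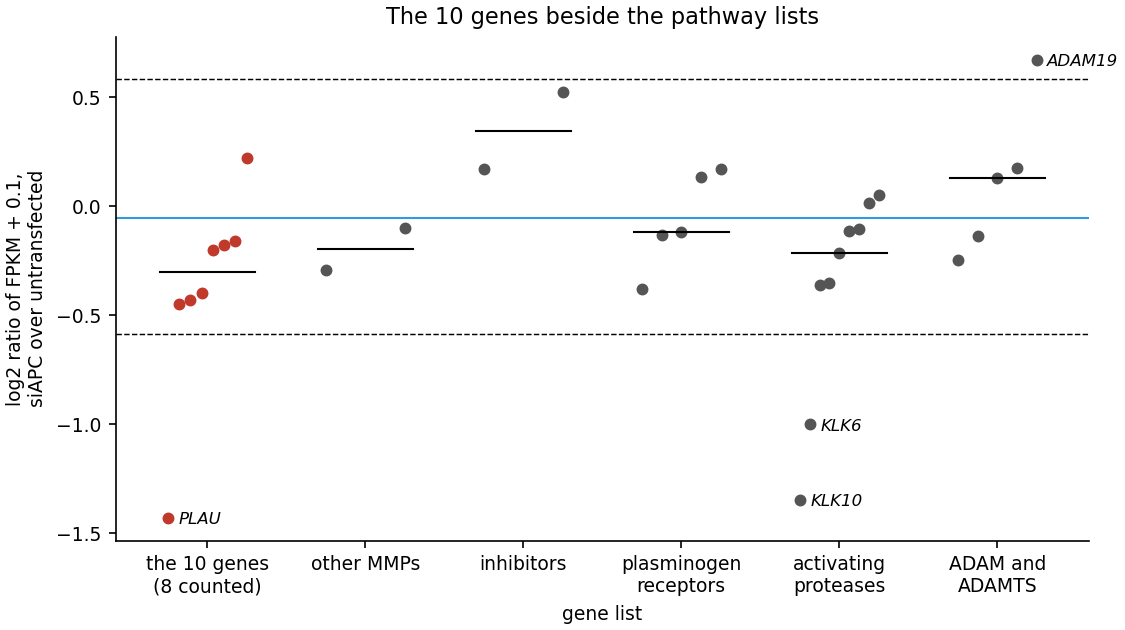
Log2 ratio of FPKM + 0.1, anti-*APC* siRNA (siAPC) over untransfected, of genes with a mean of at least 1 FPKM in the group of 10 (red) and in 5 pathway lists (grey), with black bars at each median, a blue line at the median of all genes (-0.05) and dashed lines at 1.5-fold. *PLAU*, *KLK10* and *KLK6* lie below the lower dashed line and *ADAM19* lies above the upper one.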

How the data were processed

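The authors prepared single-read TruSeq libraries from HCT-116 cells, and ran Cufflinks to place reads on hg19 transcripts and Cuffdiff to quantify them. Versions, aligner and annotation are not given in the sources used here. The values the authors deposited are FPKM, 1 column for the anti-*APC* library and 1 for the untransfected library. The fold change, test statistic, p and q of the authors' own comparison stand in the same table and were not used. The gene lists and the 10 genes were chosen with earlier results of these data known.

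Ratios were taken on log2(FPKM + 0.1), over genes with a mean of both libraries of at least 1 FPKM and without a failed estimate (269 genes failed). Fold values with intervals carry no pseudocount. Depth came from 42 genes at 1 read in 1 library and 3 in the other that have 1 basic GENCODE 44 transcript, less a fragment length of 200. Its quartiles for the untransfected library are 17300000 and 27900000 reads. Estimated reads gave exact Poisson intervals for levels and Clopper-Pearson intervals for ratios, both at 95%. With 1 library per group no p-value was computed. Genes named beside the 10 are *APC*, list genes past 1.5-fold, the 2 most abundant of each list and genes at a shared locus. One gene of the inhibitor list is not reported here. Markers that set a label check and further genes of the 10's pathway (*MMP2*, *MMP9*, *MMP16*, *MMP20*, *MMP24*, *MMP25*, *PLG*, *FURIN*, *SERPINA5*, *SERPINB2*, *TIMP3*, *S100A10*, *PLGRKT*) were named after their values were seen. *PLGRKT* is in the table under an older symbol. Motif windows use GRCh37. The scripts were tested on simulated data. Scripts ran under Python 3.11.15; package versions were matplotlib 3.10.9, scipy 1.17.1, pandas 2.3.3 and numpy 2.4.6.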

Additional observations from a re-analysis of the deposited data

How the results depend on the processing

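*PLAU* was at least 1.5-fold lower with anti-*APC* siRNA under all 3 other pseudocount settings and all 3 other scalings. An expression filter or a fold threshold cannot change the ratio of a gene, so those settings do not test it. *PLAU* was counted under both other filters and passed both other fold thresholds. Its log2 ratio ran from -1.49 (equal sums of FPKM) to -1.33 (pseudocount of 1 FPKM). The direction of the other 7 genes also held under the 3 other scalings. A pseudocount added to both libraries cannot reverse a direction, so those settings do not test it. The log2 ratio of *MMP7* ran from 0.13 to 0.27 over the pseudocounts and scalings. A threshold of 0.32 on the log2 scale gave 4 of the 8 counted genes lower (*PLAU*, *PLAUR*, *MMP15* and *TIMP1*), beside 2240 of all 12197 genes. At 1.5-fold, use of genes alone at their locus gave 0 of the 6 counted genes lower, beside 526 of 9184 genes, because *PLAU* shares its locus and was left out. Over all genes the higher and lower counts were 869 and 1613 with no filter, 236 and 412 with a mean of at least 5 FPKM, 164 and 228 at 2-fold, 895 and 2240 at a log2 threshold of 0.32, and 185 and 526 for genes alone at their locus. A pseudocount of 1 FPKM left 526 lower. Over the 5 pathway lists the higher and lower counts were 3 and 8 with no filter, 0 and 1 at 2-fold and 2 and 5 at a log2 threshold of 0.32, and 1 gene was lower with a mean of at least 5 FPKM. A comparison with the library of cells given scrambled siRNA was not run, because the values used here cover only the anti-*APC* and untransfected libraries. No paired analysis was possible because each condition has 1 library. Depth limits *MMP7*, *MMP1* and *MMP13*, and the spread between cultures is unknown for all genes.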

Other observations

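Further secreted proteases were looked at after the values of *KLK6* and *KLK10* had been seen. Kallikrein-related peptidases are serine proteases encoded side by side on chromosome 19. Of 15 such genes 4 had a mean of at least 1 FPKM, and 3 of these were at least 1.5-fold lower with anti-*APC* siRNA, as were 6.80% of all 12197 genes with such a mean. *KLK6* and *KLK10*, which prompted the look, are 2 of the 3. *KLK7*, the third beside *KLK6* and *KLK10*, had 9.63 FPKM in untransfected and 4.98 FPKM in knockdown cells, a ratio of 0.517 (95% counting interval 0.439 to 0.610). *KLK8* had 16.4 and 15.2 FPKM, a ratio of 0.925 (0.786 to 1.09) that spans equal levels, although it lies in the same cluster. *KLK5*, under the mean of 1 FPKM, had 0.469 and 0.0638 FPKM, about 17 and 2 reads.

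Cathepsins, the proteases of lysosomes, were expressed more widely. Of 16 genes 9 had a mean of at least 1 FPKM, 2 of these were at least 1.5-fold lower with anti-*APC* siRNA, none was 1.5-fold higher, and 7 had a log2 ratio below 0. Over all genes these shares were 6.80% lower, 2.92% higher and 58.6% below 0. *CTSZ* had 65.0 FPKM in untransfected and 41.3 FPKM in knockdown cells, and *CTSH* had 7.29 and 3.90 FPKM. *CTSB*, which can activate pro-urokinase, had 65.4 and 46.6 FPKM, a ratio of 0.712 (0.684 to 0.741) under the 1.5-fold limit. These families were chosen after their values were seen and have 1 library per condition.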
